A study of Mus musculus with 15 samples.

Results

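The collagen genes are those whose symbol in the probe annotation is Col, a number, the letter a and a number, which took 42 of the 18193 genes with a probe set of their own on the Affymetrix Mouse Genome 430 2.0 array. These 42 genes had 82 probe sets, and the brightest of them, by mean log2 intensity over the 15 arrays, stood for its gene. The genes were followed across 5 populations of mammary cells of C57BL/6 females, with 3 arrays each. From 3 cell suspensions of adult virgin wildtype mice came the basal, stem cell-enriched fraction (MaSC), gated as Lin-CD24+CD29hi. The same suspensions gave the luminal fractions gated as Lin-CD24hiCD29+, of which the CD61+ cells are called luminal progenitors (LP) and the CD61- cells mature luminal (ML). The alveolar luminal fraction (AL) was made of Lin- cells with yellow fluorescent protein from Wap-Cre;R26Y mice at midgestation. Its counterpart with the same mark in adult virgin Wap-Cre;R26Y mice is called alveolar luminal stem/progenitor (ALP). Cre is driven by the promoter of whey acidic protein, a milk protein, and the R26Y reporter stays on in the descendants of a cell that once had Cre. AL and ALP therefore share both transgenes and the sorting gate and differ in reproductive stage. The Lin- gate removes endothelial and blood cells, and the methods name no antibody against fibroblasts in it. The sources used here give no age in weeks, nor whether AL and ALP arrays come from separate mice, so p-values measure the spread between arrays.

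Collagens are trimers of chains that wind into a triple helix, and each chain has its own gene. Fibrillar collagens assemble into the banded fibrils of connective tissue and are known mainly as products of fibroblasts, whereas type IV collagen forms the sheet-like network of basement membranes. In the mammary gland the basement membrane lies beneath the myoepithelial and luminal cells, and the fibrillar stroma lies outside it. Other families coat fibrils (FACITs, fibril-associated collagens with interrupted helices), form beaded filaments, anchor epithelium to the basement membrane, or build short-chain networks.

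A gene was tested if its probe set exceeded the array's median intensity on at least 3 of the 15 arrays, which 29 of the 42 collagen genes did. They comprised 8 of 11 fibrillar genes, 6 of 8 basement membrane genes, both anchorage genes, 3 of 5 beaded filament genes, 7 of 9 FACIT genes, 2 of 3 short-chain genes and 1 of 3 other transmembrane genes. The remaining 13 were Col2a1, Col4a3, Col4a4, Col6a4, Col6a5, Col10a1, Col11a2, Col13a1, Col19a1, Col22a1, Col23a1, Col24a1 and Col26a1. Among these 13, the highest single intensity was 362, for Col23a1 on MaSC replicate 3. Col6a4, a beaded filament chain, gave 103, 179 and 198 in MaSC and at most 36.0 on any other array. Intensities of different probe sets are not on a common scale, so levels are compared only within a gene.

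The labelled identities were only partly visible in the marker genes, and other cell types were visible too. Summed intensity of 7 basal markers (Krt5, Krt14, Acta2 and others) was 63012 to 68074 in MaSC and at most 28055 on any other array. The sum of 4 alveolar markers was at least 34169 in AL and at most 2228 elsewhere. Yet 4 luminal markers (Krt8, Krt18, Krt19 and Epcam) summed to at least 50574 on every MaSC array, and no LP array exceeded 63608. Luminal progenitor sums were 16763.5, 9838 and 6620 on MaSC replicates 1 to 3, and no ML array exceeded 14215. Mature luminal sums there were 16790.1, 12153.5 and 5103, whereas LP had at most 10560 and ML at least 26109. Summed intensity of 10 fibroblast markers (Pdgfra, Dpt, Lum, Dcn and others) was 26714 to 37432 in LP, 13150 to 20607 in AL and 32148 to 76990 in ALP, against 6694 to 9722 in MaSC and 1636 to 6214 in ML. All 10 exceeded the array median on every array of LP, AL and ALP, 6 did in MaSC and 2 did in ML. ALP replicate 3 stood apart, with a leukocyte marker sum of 33287 against 1948 and 2621 on ALP replicates 1 and 2, an endothelial sum of 20450 against 2739 and 5341, and a fibroblast sum of 76990. Outside ALP, the sum of 8 endothelial markers was 706 to 3656, with Vwf up to 1855 and Eng up to 1597 in ML, Tek up to 845 in LP, and Pecam1 at most 103. Outside ALP, the sum of 7 leukocyte markers was 779.7 to 2765, with Cd68 up to 1893 in LP, Lyz2 up to 1150.0 in AL, and Ptprc at most 93.6. The sum of 4 adipocyte markers was 4702 to 5282 in AL and 6185 to 14288.5 in ALP, against at most 1115 elsewhere. Of these 4, Fabp4 alone was bright enough to be tested. The sum of 6 pericyte markers was 8398 to 17922 in ALP and 1877 to 6301 elsewhere. Mean Rgs5 was 1075 in AL and 37.1 in LP, whereas mean Notch3 and Abcc9 were lower in AL than in LP. What part the other cell types had in the collagen values was not tested. In a sorted population, fewer cells that express a gene and less RNA per cell cannot be told apart.

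**Figure D1:**
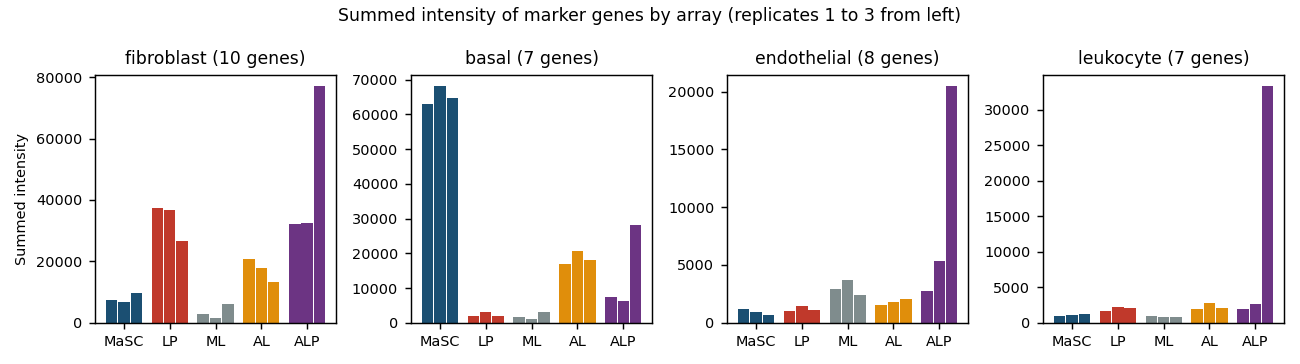
Summed intensity (linear scale, arbitrary units) of the markers of fibroblasts, basal cells, endothelial cells and leukocytes on each of the 15 arrays, with replicates 1 to 3 of each population from left to right. The fibroblast sum was higher on every LP, AL and ALP array than on every MaSC and ML array, and ALP replicate 3 had the highest fibroblast, endothelial and leukocyte sums.

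Each of the 29 tested collagen genes differed among the 5 populations (limma F test, Benjamini-Hochberg adjusted p from 2.63e-08 for Col3a1 to 0.00579 for Col6a3), where 84.7% of all 12107 tested genes did. Of the 29, 21 had their lowest mean log2 intensity in ML (72.4%, against 26.2% of all tested genes), and 15 had their highest in MaSC (51.7%, against 22.0%). ALP was highest for 8 (27.6%, against 7.54% of all tested genes). LP, ML and AL were highest for 2 each (6.90%, against 18.5%, 26.3% and 25.7%). The lowest mean was in AL for 5 genes (17.2%, against 24.4%), in LP for 2 (6.90%, against 11.8%) and in MaSC for 1 (3.45%, against 30.2%).

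**Figure D2:**
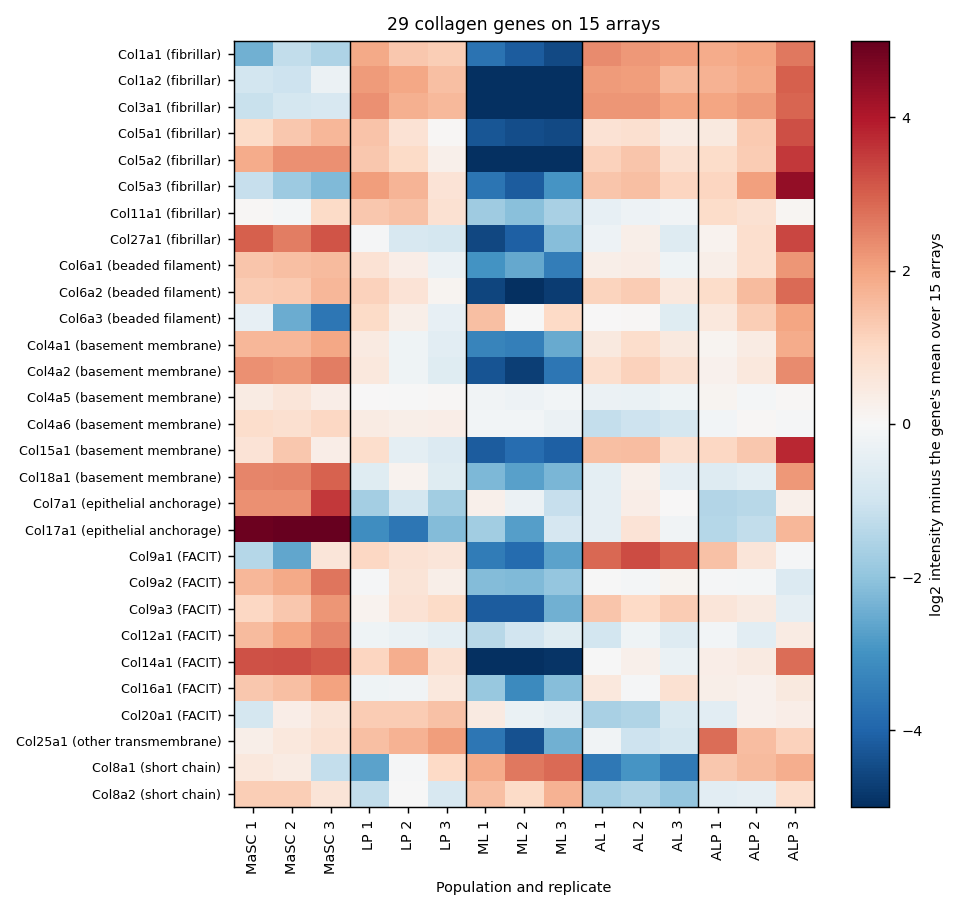
Log2 intensity of the 29 tested collagen genes on the 15 arrays, each gene minus its mean over all arrays, with the colour scale limited to differences of 5 in either direction. Most rows are darkest blue in the 3 ML columns, and the fibrillar genes Col1a1, Col1a2 and Col3a1 are low in MaSC. ALP replicate 3 is the most intense ALP column for 22 of the 29 genes, and was so for 53.1% of all tested genes.

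Counts of collagen genes that passed at an adjusted p under 0.05 ranged from 27 of 29 between MaSC and ML to 1 of 29 between ALP and LP. MaSC exceeded ML for 25 genes and lay below it for 2, 27 of 29 in all, where 59.6% of all genes passed. LP exceeded ML for 22 and lay below it for 2, against a background of 49.1%, and AL exceeded ML for 20 and lay below it for 4, against 53.5%. ALP exceeded ML for 21 genes and lay below it for 1, where 36.7% of all genes passed. Between MaSC and LP, 22 collagen genes passed, 14 higher and 8 lower in MaSC, with a background of 38.9%. AL was above MaSC for 6 and below it for 17, against 59.4%, and ALP was above MaSC for 6 and below it for 12, against 38.4%. Among LP, AL and ALP the counts were smaller: 10 between AL and LP (3 higher and 7 lower in AL, where 21.3% and 24.2% of all genes were, 45.6% in all), 8 between AL and ALP (1 higher and 7 lower in AL, background 39.9%) and 1 between ALP and LP, lower in ALP, where 7.56% of all genes passed, 3.58% higher and 3.97% lower. Without ALP replicate 3 these counts were 8 between AL and ALP (2 higher and 6 lower), 22 between ALP and MaSC (7 higher and 15 lower), 21 between ALP and ML (20 higher and 1 lower) and 0 between ALP and LP. The shares of all genes above come from all 15 arrays and are not a background for the counts without that array. The comparisons share populations, so their counts are not independent. Col12a1 and Col17a1 passed the filter only through MaSC and Col20a1 only through LP, so their excess in that population is given below as a description, without a test, although the counts include them.

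The number of the 29 genes whose arrays did not overlap between 2 populations is given beside the share of all genes. It was 25 between MaSC and LP (54% of all genes), 27 between MaSC and ML (66%), 26 between LP and ML (66.6%) and 25 between AL and MaSC (67.8%). It was 15 between AL and LP (68.4%), 25 between AL and ML (69.5%) and 11 between AL and ALP (53.4%). ALP gave 17 against MaSC (41.9%), 7 against LP (31.4%) and 24 against ML (49%). Between AL and LP, AL and ALP, and ALP and LP the collagen share was below that of all genes.

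Among the fibrillar genes, Col1a1 and Col1a2 encode the chains of type I collagen, the main fibril of stroma, and Col3a1 encodes type III, its partner in distensible tissue. Col1a1 intensity was 316, 721 and 569.8 on the MaSC arrays, 6295, 4317 and 3928 in LP, 128, 93.8 and 74.1 in ML, 8584, 7504 and 6907 in AL and 6132, 6619 and 10376 in ALP. No array of MaSC or ML overlapped those of LP, AL or ALP, and MaSC lay above ML on every array. Col1a1 was 9.37-fold lower in MaSC than in LP (log2 difference -3.23, SE 0.32, adjusted p = 3.14e-05) and 5.26-fold higher in MaSC than in ML (adjusted p = 8.61e-05). Col1a2 intensity was 868, 809 and 1353 in MaSC, 7221, 6314 and 4697 in LP, 40.8, 43.8 and 46.5 in ML, 7272, 6978 and 5083 in AL and 5585, 6170.2 and 13085 in ALP. Col3a1 intensity was 898, 1056 and 1122 in MaSC, 9313, 6698 and 5898 in LP, 45.2, 36.0 and 54.7 in ML, 8938, 8910.2 and 7499 in AL and 7496, 8522 and 14494 in ALP. Both genes were lowest in ML, intermediate in MaSC and high in LP, AL and ALP, whose arrays overlapped, whereas for Col1a1 every AL array lay above every LP array. The log2 difference between MaSC and LP was -2.61 for Col1a2 (SE 0.31, adjusted p = 9.04e-05) and -2.81 for Col3a1 (SE 0.25, adjusted p = 1.57e-05). Against ML, AL was 146-fold higher for Col1a2 and 189-fold higher for Col3a1 (adjusted p = 4.37e-08 and 1.76e-08). The other Col3a1 probe set gave a smaller log2 difference between AL and ML, 5.36 against 7.56, and between MaSC and ML it gave 0.67 against 4.52 and did not pass (adjusted p = 0.338). Neither AL against LP nor AL against ALP passed for any of the 3 genes, with log2 differences from -0.27 (Col1a2, AL against ALP) to 0.69 (Col1a1, AL against LP, adjusted p = 0.0972).

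**Figure D3:**
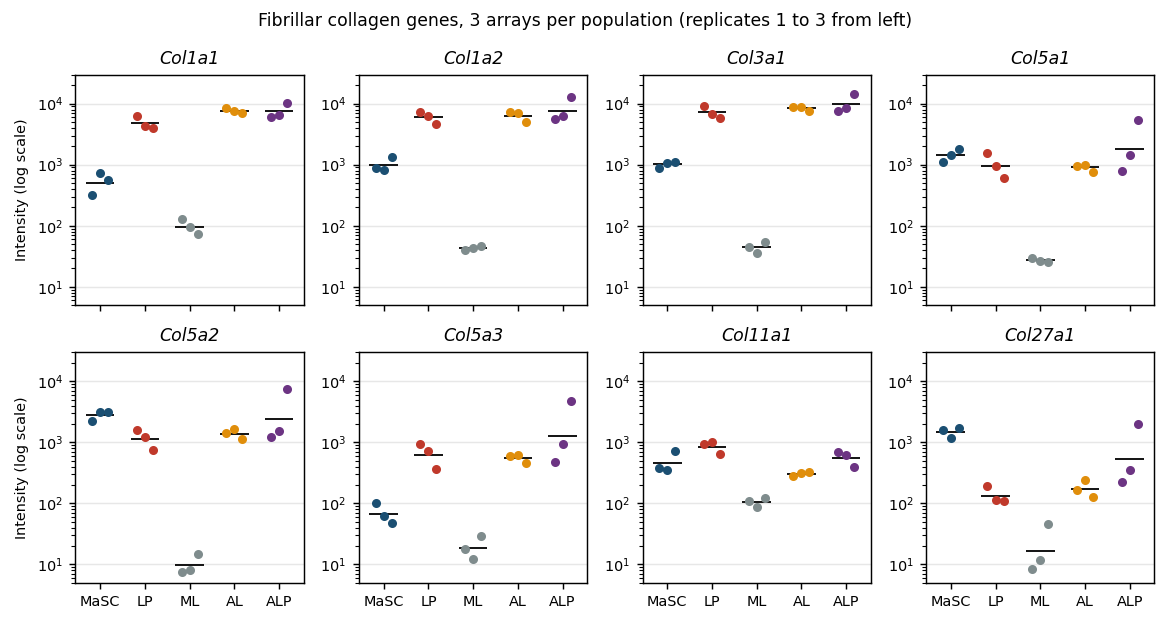
Intensity (log axis) of the 8 tested fibrillar collagen genes, with each point 1 array, replicates 1 to 3 from left to right, and the line the mean of the log2 intensities. ML is lowest for every gene, and Col1a1, Col1a2, Col3a1 and Col5a3 are lower in MaSC than in LP, AL and ALP, whereas Col27a1 is higher in MaSC than in LP and AL.

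The 250 bases before the annotated starts of Col1a2 and Col3a1, whose intensities moved together, are shown to place these genes in the genome (RefSeq, GRCm38.p6). A window for at least 1 start was found for 33 of the 42 collagen genes, and each was searched on both strands for the TATA box (letters TATAAA), the CCAAT box (letters as its name), the GC box (letters GGGCGG) and the core bound by Runx factors (letters TGTGGT). Matches are in capitals, and a match on the other strand appears as its reverse complement. No match in the printed windows overlapped a match of another motif. The Col1a2 window lies at chr6:4505368-4505617 on the plus strand and the Col3a1 window at chr1:45311288-45311537 on the plus strand.
Col1a2: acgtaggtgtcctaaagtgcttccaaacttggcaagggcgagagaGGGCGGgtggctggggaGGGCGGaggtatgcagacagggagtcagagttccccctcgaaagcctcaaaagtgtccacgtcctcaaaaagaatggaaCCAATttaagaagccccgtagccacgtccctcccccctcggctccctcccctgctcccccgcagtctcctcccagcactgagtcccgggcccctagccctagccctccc
Col3a1: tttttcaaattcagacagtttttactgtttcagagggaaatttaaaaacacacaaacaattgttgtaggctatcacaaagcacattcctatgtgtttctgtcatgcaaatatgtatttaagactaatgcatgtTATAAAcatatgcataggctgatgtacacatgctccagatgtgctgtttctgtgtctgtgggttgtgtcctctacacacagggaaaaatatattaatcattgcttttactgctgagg
The Col1a2 window held 1 CCAAT box and 2 GC boxes and had a GC content of 62.0%, whereas the Col3a1 window held 1 TATA box and neither of those, with a GC content of 35.2%. Thus 2 genes with the same order of populations by mean log2 intensity differed in these letters. Over all 32851 windows of this length the TATA box occurred in 12.4%, the CCAAT box in 33.8%, the GC box in 32.7% and the Runx core in 14.0%. Among the 33 collagen genes the TATA box occurred in 5, the CCAAT box in 13, the GC box in 20 and the Runx core in 3 (Col8a1, Col17a1 and Col18a1). A match is a description of the letters and not a binding site.

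The other fibrillar genes did not all follow type I and III. Col5a3, a chain of the fibril-nucleating type V collagen, gave 102, 63.0 and 48.4 in MaSC, 954, 719.6 and 363 in LP, 17.8, 12.4 and 29.2 in ML, 593, 631 and 467 in AL and 472, 923 and 4681 in ALP. Its MaSC arrays were below every LP, AL and ALP array, and it was 9.30-fold lower in MaSC than in LP (log2 difference -3.22, SE 0.69, adjusted p = 0.00333). Against ML, MaSC was 3.63-fold higher (adjusted p = 0.0347), a call that ended without MaSC replicate 1 or 2 or ML replicate 1 or 2 (adjusted p 0.066 to 0.111). Col5a2, another chain of type V, gave 2273, 3098 and 3107 in MaSC, 1601, 1234 and 747 in LP, 7.60, 8.23 and 14.8 in ML, 1405, 1678 and 1117 in AL and 1214, 1536 and 7417 in ALP. Here every MaSC array exceeded every LP and AL array, although the differences did not pass (log2 1.30, adjusted p = 0.0884 against LP, and AL against MaSC -1.02, adjusted p = 0.139). The other Col5a2 probe set passed as higher in MaSC than in LP (log2 1.75, adjusted p = 0.0477). It did not pass in AL against MaSC (log2 -0.35, adjusted p = 0.655). Without ALP replicate 3, Col5a2 was lower in ALP than in MaSC (log2 -1.03, adjusted p = 0.0389). Col5a1, the third type V chain, did not pass between MaSC and LP (log2 0.59, adjusted p = 0.424).

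Col27a1, a fibrillar collagen described mainly in cartilage, was the fibrillar gene whose brightest probe set passed as higher in MaSC than in LP. It gave 1569, 1159 and 1733 in MaSC, 189.8, 115 and 108 in LP, 8.54, 11.8 and 45.8 in ML, 168, 245 and 127 in AL and 221, 357 and 1993 in ALP. MaSC overlapped no array of LP, ML or AL, and ALP replicate 3 was above all MaSC arrays whereas ALP replicates 1 and 2 were below them. Col27a1 was 11.01-fold higher in MaSC than in LP (log2 3.46, SE 0.75, adjusted p = 0.00365) and 8.45-fold lower in AL than in MaSC (adjusted p = 0.00412). ALP against MaSC did not pass with all arrays (log2 -1.44, adjusted p = 0.147) and passed without ALP replicate 3 (log2 -2.38, adjusted p = 0.00991). Col11a1, a chain of the cartilage fibril collagen type XI, was the gene of this class with its highest mean in LP, at 941, 1028 and 634, against 278, 314 and 330.5 in AL. It was 2.77-fold lower in AL than in LP (adjusted p = 0.00182), the only fibrillar call between these populations. Its lower value in MaSC than in LP (1.85-fold, adjusted p = 0.0312) was lost without MaSC replicate 1 or 2 or LP replicate 1 or 2 (adjusted p 0.0915 to 0.118), and its lower value in AL than in ALP (1.83-fold, adjusted p = 0.0333) was lost without AL replicate 1, 2 or 3 or ALP replicate 1 or 2 (adjusted p 0.0617 to 0.111).

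In ML, no fibrillar gene exceeded the array median on any array, so the size of a fold against ML depends on the lowest intensities. For Col5a2 the excess of LP over ML was 117-fold, and 44.4-fold after adding 16 to every intensity. All 8 tested fibrillar genes passed as higher in MaSC, LP, AL and ALP than in ML, where the share of all genes that passed as higher was 27.1%, 27.3%, 28.7% and 21.1%.

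The type IV genes ran the other way between MaSC and LP. Col4a1 and Col4a2 encode the chains of the network found in nearly all basement membranes. Col4a1 intensity was 9248, 9402 and 11297 in MaSC, 4003, 2509 and 2029 in LP, 297, 278 and 515 in ML, 4143, 5402 and 4129 in AL and 3270.2, 3854 and 10637 in ALP. Col4a2 intensity was 9179, 8671 and 10858 in MaSC, 2676, 1582 and 1218 in LP, 94.0, 71.3 and 150.3 in ML, 3368, 4133 and 3201 in AL and 2137, 2700.0 and 9451 in ALP. MaSC and ML each overlapped no array of LP or AL for either gene, and ALP replicate 3 reached the MaSC range whereas ALP replicates 1 and 2 lay within or near those of LP and AL. In MaSC, Col4a1 was 3.64-fold higher than in LP (log2 1.86, SE 0.40, adjusted p = 0.00363). Col4a2 was 5.51-fold higher in MaSC than in LP (log2 2.46, SE 0.48, adjusted p = 0.00202). Against ML, LP was 7.82-fold higher for Col4a1 and 17.2-fold higher for Col4a2 (adjusted p = 1.49e-04 and 5.82e-05). In AL, Col4a1 was 2.20-fold lower than in MaSC (adjusted p = 0.0296), a call that ended without MaSC replicate 1, 2 or 3 or AL replicate 1 or 3 (adjusted p 0.0501 to 0.0803). The 2.69-fold lower Col4a2 (adjusted p = 0.0237) was lost without MaSC replicate 3 or AL replicate 1 or 3 (adjusted p 0.0587 to 0.0651). Between ALP and MaSC, Col4a1 passed without ALP replicate 3 (log2 -1.49, adjusted p = 0.00337) and not with it (log2 -0.96, adjusted p = 0.0801). Col4a2 passed as lower in ALP than in MaSC, and still did without ALP replicate 3 (log2 -1.99, adjusted p = 0.00118). That call ended without MaSC replicate 1, 2 or 3 or ALP replicate 1 or 2 (adjusted p 0.0759 to 0.154).

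**Figure D4:**
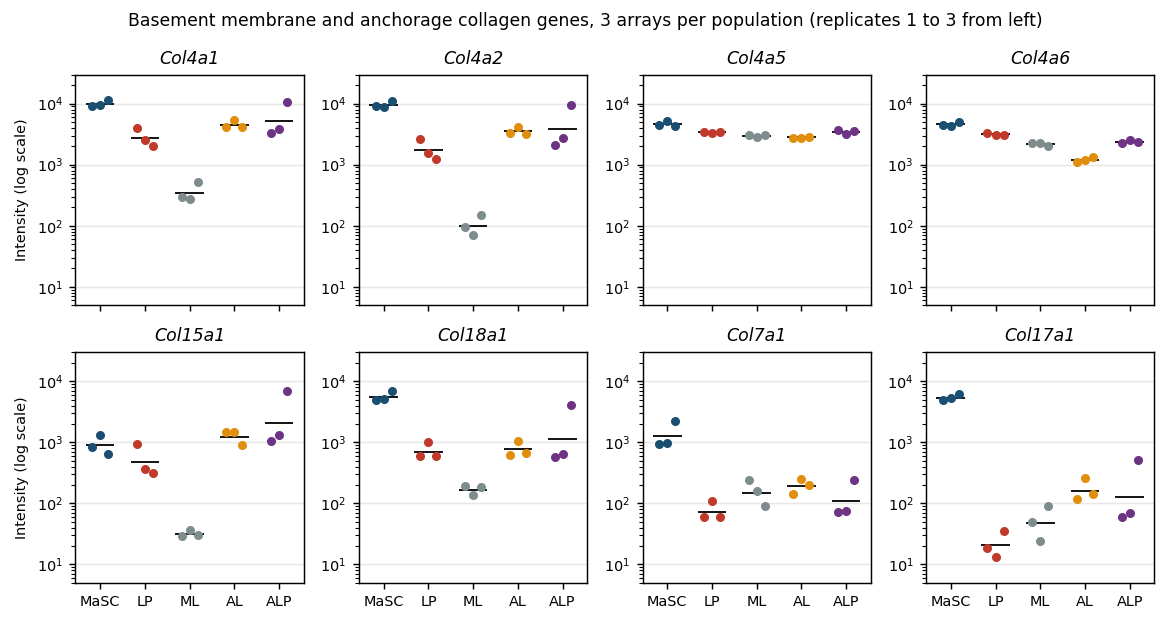
Intensity (log axis) of the 6 tested basement membrane collagen genes and the 2 epithelial anchorage genes, with each point 1 array, replicates 1 to 3 from left to right, and the line the mean of the log2 intensities. MaSC has the highest mean for every gene but Col15a1, and Col17a1 is below 100 on every LP and ML array.

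Col4a1 and Col4a2 lie head to head on chromosome 8 of GRCm38.p6, with RefSeq starts 21 bases apart (Col4a1 at 11312826 on the minus strand, Col4a2 at 11312805 on the plus strand). A stretch of 30 bases just before the Col4a2 start, at chr8:11312763-11312792 on the plus strand, is shown to place this pair of starts, with the CCAAT box in capitals 32 bases before the Col4a2 start. The stretch lies after the Col4a1 start, on that gene's transcribed side.
Col4a1 and Col4a2: gaggagctccCCAATttgttggcgctgccc
Col4a5 and Col4a6, which encode the chains of another type IV network, also lie head to head, with starts 1343 bases apart. AL lay 1.80-fold below ML for Col4a6 (adjusted p = 2.63e-05), whereas Col4a5 did not pass (log2 -0.10, adjusted p = 0.351).

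Col4a6 intensity was 4479, 4314 and 5081 in MaSC, 3265, 3062 and 3096 in LP, 2249.6, 2270.2 and 2017 in ML, 1088, 1208 and 1346 in AL and 2228, 2562 and 2397 in ALP. Its AL arrays were the lowest of all and its MaSC arrays the highest, with LP below MaSC and above ML on every array. Col4a6 was 3.81-fold lower in AL than in MaSC (log2 -1.93, SE 0.10, adjusted p = 9.36e-08) and 1.98-fold lower in AL than in ALP (adjusted p = 2.31e-05). It was the single collagen gene called between ALP and LP (1.31-fold lower in ALP, adjusted p = 0.036), and this call ended without any 1 of the 6 arrays (adjusted p 0.0528 to 0.111) and was not passed by another Col4a6 probe set (log2 -0.49, adjusted p = 0.0851). Col4a5 ranged from 2700.2 to 5116 over all arrays and was 1.35-fold higher in MaSC than in LP (adjusted p = 0.00257).

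Col18a1 and Col15a1 encode basement membrane collagens that carry sugar chains and an endostatin-like end. Col18a1 gave 4918, 5055 and 6958 in MaSC, 588, 1011 and 592 in LP, 190.5, 137 and 183 in ML, 630.5, 1071 and 660.4 in AL and 565, 645 and 4046 in ALP. Every MaSC array was above every array of the other populations, and Col18a1 was 7.89-fold higher in MaSC than in LP (log2 2.98, SE 0.59, adjusted p = 0.00215). Its 4.19-fold excess in LP over ML (adjusted p = 0.0128) was lost without LP replicate 2 (adjusted p 0.0509). Col15a1 gave 823, 1299.8 and 653 in MaSC, 948, 368 and 315 in LP, 28.9, 36.8 and 30.1 in ML, 1456, 1491 and 887 in AL and 1037, 1313 and 6925 in ALP. MaSC overlapped LP, AL and ALP for Col15a1, which was the basement membrane gene that did not pass between MaSC and LP (log2 0.89, adjusted p = 0.284), and ML was below all other arrays (AL against ML 39.2-fold higher, adjusted p = 2.95e-05).

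Set side by side, the fibrillar and basement membrane genes had calls mostly in opposite directions between MaSC and each of LP, AL and ALP, but not between MaSC and ML, where all 8 and all 6 tested genes were higher in MaSC, and the difference between the classes was not tested. Between MaSC and LP, 5 of 8 fibrillar genes were lower and 1 was higher in MaSC (median log2 difference -1.75), whereas 5 of 6 basement membrane genes were higher and 0 lower (median 1.38), against 23.1% of all genes lower and 15.7% higher (median -0.07). In AL against MaSC, 4 fibrillar genes were higher and 1 lower (median 1.06), and 0 basement membrane genes were higher and 5 lower (median -1.28), where 31.3% of all genes were higher and 28% lower. In ALP against MaSC, 4 fibrillar genes were higher and 0 lower (median 1.65), and 0 basement membrane genes were higher and 4 lower (median -0.95), where 21.8% of all genes were higher and 16.6% lower. This ALP split depends on ALP replicate 3. Without that array, as given above, the fibrillar Col5a2 and Col27a1 and the basement membrane Col4a1 also passed as lower in ALP than in MaSC. Fibrillar calls then went in both directions, since Col5a3 stayed higher in ALP. LP, AL and ALP shared the MaSC arrays in these comparisons. The summed fibroblast markers were higher and the summed basal markers lower in LP, AL and ALP than in MaSC, as given above, but mean Fbln1 was higher in MaSC than in LP, AL and ALP, and mean Pdgfrb higher in MaSC than in LP and AL. Against ML, both classes lay higher in LP, with medians of 5.39 for fibrillar and 2.52 for basement membrane genes.

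**Figure D5:**
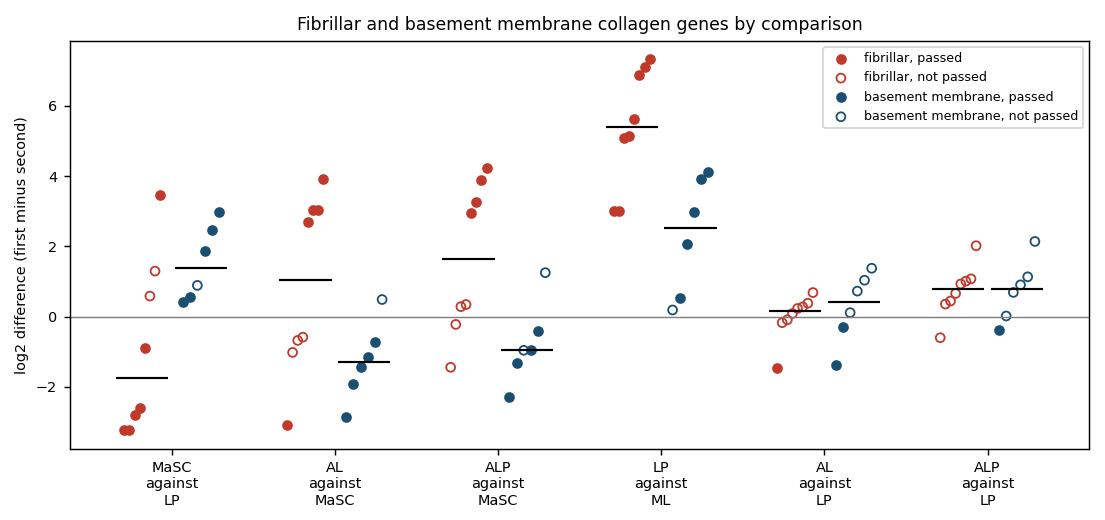
Fitted log2 differences of the 8 fibrillar (red) and 6 basement membrane (blue) collagen genes in 6 comparisons, with filled points for genes that passed at an adjusted p under 0.05, open points for those that did not, and the line the median. In MaSC against LP the fibrillar median is below 0 and the basement membrane median above it, and in AL or ALP against MaSC the medians have the opposite signs.

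Both anchorage genes were highest in MaSC. Col17a1 encodes the transmembrane collagen of hemidesmosomes, which tie basal cells to the basement membrane, and Col7a1 encodes the anchoring fibrils beneath them. Col17a1 gave 4851, 5262 and 6118 in MaSC, 18.7, 13.1 and 35.6 in LP, 48.9, 23.8 and 90.9 in ML, 118, 256 and 141 in AL and 59.5, 69.5 and 509 in ALP. All MaSC arrays were above every other array, and the excess over LP, 262-fold (log2 8.03, SE 0.74), was the largest of any collagen gene in that comparison. With 16 added to every intensity it was 145-fold, since the LP arrays were below their array medians. Col17a1 was also higher in AL than in LP (7.88-fold, adjusted p = 0.00677), and basal marker sums were 17021 to 20792 in AL against 1963 to 3006 in LP. Of those markers, Trp63 had nearly equal means in AL and LP (406.5 and 408.5), and the others had higher means in AL. In ALP, Col17a1 was 42.0-fold lower than in MaSC, and 83.8-fold lower without ALP replicate 3. Col7a1 gave 952, 957 and 2269 in MaSC, 60.5, 108 and 59.2 in LP, 237, 159.5 and 89.6 in ML, 145, 251 and 201 in AL and 72.03, 76.1 and 237 in ALP. Col7a1 too was highest on the MaSC arrays, with no overlap, and was 17.5-fold higher in MaSC than in LP (log2 4.13, SE 0.52, adjusted p = 1.34e-04). Its 2.67-fold excess in AL over LP (adjusted p = 0.0433) was lost without LP replicate 1 or 3 or AL replicate 1, 2 or 3 (adjusted p 0.0502 to 0.129).

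The Col17a1 window before the RefSeq start, at chr19:47692043-47692292 on the minus strand of GRCm38.p6, is shown because Col17a1 had the largest difference of the collagen genes between MaSC and LP. Against ML, Col14a1 had a larger MaSC excess. Capitals mark the same motifs as above.
Col17a1: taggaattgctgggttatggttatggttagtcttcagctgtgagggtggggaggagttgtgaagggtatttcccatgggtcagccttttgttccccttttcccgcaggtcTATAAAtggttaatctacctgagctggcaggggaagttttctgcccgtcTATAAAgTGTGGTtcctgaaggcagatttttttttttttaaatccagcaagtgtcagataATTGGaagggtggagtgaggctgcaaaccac
It held 2 TATA boxes, 1 Runx core and 1 CCAAT box on the other strand, at a GC content of 46.0% against a median of 59.0% over the collagen windows and 52.4% over all windows.

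The chains of type VI collagen, which forms beaded filaments next to basement membranes, did not move as one. Col6a1 gave 5389, 5807 and 6096 in MaSC, 3399.8, 2617 and 1664 in LP, 258, 351 and 187 in ML, 2494, 2669.8 and 1771 in AL and 2543, 3710.0 and 9595 in ALP. Col6a3 gave 1477, 354 and 164 in MaSC, 3812, 2425 and 1485 in LP, 5580.3, 1980.3 and 3953 in ML, 2009, 2092 and 1309 in AL and 2849, 4677 and 7734 in ALP. Col6a1 was low on all ML arrays and high in MaSC, whereas Col6a3 was high on the ML arrays and low on MaSC replicates 2 and 3, with MaSC replicate 1 close to LP replicate 3. Against ML, MaSC was 22.4-fold higher for Col6a1 (adjusted p = 7.80e-06), 73.6-fold higher for Col6a2 (adjusted p = 6.43e-07) and 7.98-fold lower for Col6a3 (log2 -3.00, SE 0.70, adjusted p = 0.00324). The Col6a3 fold was 14.6 without MaSC replicate 1 and 4.87 without MaSC replicate 3, and summed mature luminal markers were 16790.1 on MaSC replicate 1 against 5103 on MaSC replicate 3. Col6a3 was 5.43-fold lower in MaSC than in LP (adjusted p = 0.0163), a call lost without MaSC replicate 2 or 3 or LP replicate 1 (adjusted p 0.0521 to 0.0661), with a fold of 9.93 without MaSC replicate 1 and 3.31 without MaSC replicate 3. The 2.34-fold excess of Col6a1 in MaSC over LP (adjusted p = 0.0379) was lost without MaSC replicate 1, 2 or 3 or LP replicate 2 or 3 (adjusted p 0.0622 to 0.142). Col6a2 did not pass between MaSC and LP (log2 0.75, adjusted p = 0.169), although all MaSC arrays were above the LP arrays.

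Most FACIT genes were highest in MaSC and lowest in ML. Col14a1 and Col12a1 encode collagens that coat type I fibrils, and the widely expressed Col16a1 coats fibrils and microfibrils. Col14a1 gave 6079, 6220.2 and 5469 in MaSC, 1399, 2322 and 1128 in LP, 19.1, 6.91 and 21.8 in ML, 648, 792 and 524 in AL and 838, 895 and 4562 in ALP. MaSC was above all other arrays and ML below them, a 415-fold difference (log2 8.70, SE 0.60, adjusted p = 8.03e-07) that became 189.9-fold with 16 added. The other Col14a1 probe sets gave log2 6.80 and 2.799 in that comparison, each passed. Its 3.84-fold excess in MaSC over LP (adjusted p = 0.0231) was lost without MaSC replicate 2 or LP replicate 1 or 3 (adjusted p 0.0587 to 0.0794). Between LP and ML the brightest Col14a1 probe set gave a log2 difference of 6.76, the others 3.23 and -0.31, the last not passed (adjusted p = 0.618). Col12a1 gave 335, 435 and 603 in MaSC and at most 146 on any other array, a fitted ratio of 5.10 over LP, and it exceeded the array median on the MaSC arrays alone. Col16a1 gave 4775, 5208 and 7432 in MaSC against 1613, 1629 and 2656 in LP, a 2.98-fold difference (adjusted p = 0.00325).

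Type IX collagen, known from cartilage fibrils, split between its chains. Col9a1 gave 244, 109 and 997 in MaSC, 1359.8, 1096 and 998 in LP, 58.3, 45.2 and 103 in ML, 4786, 6221 and 5066 in AL and 1807, 1001 and 626 in ALP. The AL arrays were above every other array, the LP and ALP arrays overlapped, and the MaSC arrays were spread over a wide range. Col9a1 in AL exceeded ML by 82.2-fold (log2 6.36, SE 0.65, adjusted p = 9.54e-06), LP by 4.66-fold (adjusted p = 0.0153) and ALP by 5.11-fold (adjusted p = 0.0131), the one collagen gene called higher in AL than in ALP. Against MaSC the AL excess was 17.8-fold (adjusted p = 2.08e-04), 32.6-fold without MaSC replicate 3 and 10.8-fold without MaSC replicate 2. Its lower value in MaSC than in LP (3.83-fold, adjusted p = 0.0328) was lost without MaSC replicate 1 or 2 or LP replicate 1, 2 or 3 (adjusted p 0.0618 to 0.129), and was 6.99-fold without MaSC replicate 3. Col9a2 ran the other way, with 1322, 1558 and 2696 in MaSC, 403, 662 and 505 in LP, 92.2, 91.5 and 109.8 in ML, 409, 386 and 457 in AL and 400.0, 392.3 and 264 in ALP. Every MaSC array was above all others, and Col9a2 was 4.25-fold lower in AL than in MaSC (log2 -2.09, SE 0.26, adjusted p = 4.27e-05). Col9a3 did not pass between AL and MaSC (log2 -0.30, adjusted p = 0.596), and AL exceeded ML by 27.9-fold (adjusted p = 6.89e-06). Col20a1 was highest in LP (269, 269 and 307, against 36.1, 38.7 and 65.1 in AL), a fitted ratio of 6.25 between LP and AL.

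Col8a1 and Col8a2 encode the chains of type VIII, a short-chain collagen of vessel walls and of the corneal Descemet's membrane, and they were the only tested collagen genes with their highest mean in ML. Col8a1 gave 1074, 976 and 328 in MaSC, 115, 705 and 1491 in LP, 2649, 4583 and 5213 in ML, 62.6, 95.0 and 64.1 in AL and 1898, 2237 and 2576 in ALP. Col8a2 gave 428, 435 and 291 in MaSC, 77.7, 181 and 106 in LP, 524, 359 and 609.7 in ML, 57.5, 64.2 and 48.4 in AL and 128, 136 and 334 in ALP. For both genes every AL array was below every array of the other populations. Against ML, Col8a1 in AL was 55.0-fold lower (log2 -5.78, SE 0.75, adjusted p = 6.01e-05) and 30.6-fold lower in AL than in ALP (adjusted p = 3.98e-04). The other Col8a1 probe sets gave smaller log2 differences of -4.103 and -2.399 for AL against ML, each passed. For AL against ALP they gave -2.975 and -1.424, each passed. No AL array exceeded the array median for Col8a1, so the size of its folds in AL depends on low intensities. Against ML, Col8a2 in AL was 8.63-fold lower (log2 -3.11, SE 0.39, adjusted p = 4.18e-05) and 3.20-fold lower in AL than in ALP (adjusted p = 0.00506). The LP arrays of Col8a1 were widely spread, and its 8.06-fold lower value in LP than in ML (adjusted p = 0.00637) became 3.89-fold when LP replicate 1 was left out and 14.0-fold when LP replicate 3 was. Col25a1, a transmembrane collagen described in neurons, gave 206, 241 and 286 in MaSC, 476, 563 and 709.6 in LP, 13.6, 8.17 and 32.02 in ML, 150.5, 82.4 and 91.3 in AL and 1178, 489 and 374 in ALP. It was 5.75-fold lower in AL than in ALP (log2 -2.52, SE 0.49, adjusted p = 0.00192), with no overlap, and 5.52-fold lower in AL than in LP (adjusted p = 0.00183).

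Between the marked cells of the pregnant and the virgin gland, the 7 genes lower in AL than in ALP were Col4a5, Col4a6, Col8a1, Col8a2, Col11a1, Col20a1 and Col25a1. Col20a1 was 2.47-fold lower (adjusted p = 0.0197), a call lost without AL replicate 1 or 2 or ALP replicate 2 or 3 (adjusted p 0.059 to 0.0705). No AL or ALP array exceeded the array median for Col20a1. Col4a5 was 1.24-fold lower (adjusted p = 0.015), a call lost without AL replicate 2 or ALP replicate 1 (adjusted p 0.0522 to 0.0541) and not passed by another Col4a5 probe set (adjusted p = 0.172). None of the type I, III, V or VI genes passed in this comparison. ALP replicate 3 was over 2-fold above the mean of ALP replicates 1 and 2 for 16 of 29 collagen genes, where 12.3% of all tested genes were, from 2.06-fold for Col6a3 to 7.89-fold for Col17a1. It was lower than that mean for Col9a1, Col9a2, Col9a3, Col11a1 and Col25a1, with ratios of 0.446 (Col9a1) to 0.666 (Col9a2). Within LP, replicate 1 was over 2-fold above replicate 3 for 8 collagen genes (1.78% of all genes): Col4a2, Col5a1, Col5a2, Col5a3, Col6a1, Col6a2, Col6a3 and Col15a1. The fibroblast marker sum was 37432 on LP replicate 1 and 26714 on LP replicate 3.

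Enzymes that modify and fold collagen chains were mostly higher in MaSC than in LP. Of 17 tested genes of a list of 20, 10 were higher and 0 lower in MaSC (median log2 1.25), where 15.7% of all genes were higher and 23.1% lower, and 0 were higher and 10 lower in AL than in MaSC (median -1.04), where 31.3% of all genes were higher and 28% lower. Serpinh1, the collagen chaperone Hsp47, gave 4223, 5599 and 4124 in MaSC, 2354, 1790.3 and 1725 in LP, 328, 191 and 349 in ML, 2066, 2469 and 2055 in AL and 2105, 2572 and 6679 in ALP. Its ML arrays were the lowest, and MaSC was above LP by log2 1.25 (adjusted p = 0.0184). P4ha1, a catalytic subunit of prolyl 4-hydroxylase, was higher in MaSC than in LP by log2 1.63 (adjusted p = 0.0117) and fell by 2.97 on the log2 scale in AL against MaSC (adjusted p = 1.44e-04). P4hb, the shared subunit that also serves other secreted proteins, ranged from 10521 to 11978 over the 15 arrays and did not pass in MaSC against LP (adjusted p = 0.595). P3h2, a prolyl 3-hydroxylase, was higher in AL than in ALP (log2 1.36, adjusted p = 3.90e-04) and gave 3933, 4616 and 3252 in AL.

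Of the procollagen processing genes, 5 of 8 were tested, and 1 was higher and 1 lower in MaSC than in LP, a share near the 38.9% of all genes that passed. Pcolce2, an enhancer of the C-terminal protease, was lower by log2 -4.18 (adjusted p = 5.12e-04), with 93.3, 62.9 and 42.8 in MaSC and 1242, 1447 and 839.8 in LP. Bmp1, the protease itself, was higher by log2 1.29 (adjusted p = 0.0288). Among the 5 tested of 6 cross-linking genes, 4 were higher and 1 lower in LP than in ML, where 27.3% of all genes were higher and 21.7% lower. Lox, lysyl oxidase, gave 1534, 1242 and 498 in LP and 4.35, 6.18 and 7.91 in ML, and Loxl1 gave 2491, 2415 and 1169 in LP and 13.4, 6.58 and 14.8 in ML. Loxl3 ran opposite to Loxl1 between MaSC and LP, with log2 differences of 2.63 (adjusted p = 0.0149) and -2.08 (adjusted p = 0.0104). Loxl4 was the member higher in ML than in LP (log2 LP against ML -2.28, adjusted p = 4.67e-04).

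All 9 small proteoglycans that bind fibrils were tested, and 3 were higher and 4 lower in MaSC than in LP, against 15.7% and 23.1% of all genes. Lum, lumican, gave 61.2, 21.7 and 83.7 in MaSC and 4095, 3316 and 2231 in LP (log2 -6.02, adjusted p = 5.02e-06). Fmod, fibromodulin, gave 5706, 6236 and 9755 in MaSC and 24.9, 13.4 and 52.6 in LP (log2 8.08, adjusted p = 9.33e-06). Lum and Dcn are also among the fibroblast markers. Of the collagen receptors and uptake genes 6 of 9 were tested, with 1 higher and 2 lower in MaSC than in LP, not far from the 38.9% of all genes that passed. Itga1, the integrin chain that pairs into a type IV collagen receptor, gave 3148, 3720.1 and 3552 in MaSC and 284, 271 and 220.0 in LP (log2 3.75, adjusted p = 2.91e-04). Ddr2, a receptor kinase for fibrillar collagen, was lower in MaSC than in LP (log2 -1.81, adjusted p = 0.0139), whereas the epithelial Ddr1 did not pass (log2 0.11, adjusted p = 0.236).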

How the data were processed

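RNA of the 15 sorted samples was amplified with NuGEN Ovation V2 and hybridised to Affymetrix Mouse Genome 430 2.0 arrays. The authors summarised the probes with dChip and deposited 1 linear intensity per probe set and array. The sources used here do not give the dChip version, model or background step, and the number of arrays limits the precision. Of 45101 probe sets, 64 were controls, and of the others 34945 had 1 gene symbol, 932 several and 9160 none. Intensities were floored at 1 (659 values were 0) and log2 transformed. The brightest probe set stood for each gene, and genes above the array median on at least 3 of 15 arrays were kept, which left 12107. limma 3.58.1 in R 4.3.3 was fitted with a mean per population over all 15 arrays, and two-sided p-values were adjusted over all 12107 genes by Benjamini-Hochberg (passed, adjusted p under 0.05). The fit was tested on simulated data. Figures were drawn with matplotlib 3.10.9 (Python 3.11.15). Collagen genes, companion lists and markers were chosen with earlier results of these data known. Every tested collagen gene was eligible to be named, with array values for those of largest log2 difference of their class in a comparison. Other genes shown array by array were chosen after their values were seen. Alternatives were another scaling, floor, filter, probe set rule, variance estimate and test, and leaving out each array. No scan date is in the sources used here, so an array batch that coincides with a population cannot be told apart from it.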

Additional observations from a re-analysis of the deposited data

How the results depend on the processing

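The number of collagen genes that passed stayed within 1.5 times the value reported under every alternative run for MaSC against LP, MaSC against ML, LP against ML, AL against MaSC, AL against LP, AL against ML and ALP against ML, and no direction reversed. ALP against LP, with 1 gene, gave 4 with arrays centred on their medians, 3 with quantile normalization, 2 with 16 added to every intensity, 0 without the filter, 4 with the mean over probe sets, 0 with only the 2 populations in the fit, 3 with an intensity trend of the variance and 0 with the methods' t-test. AL against ALP, with 8, gave 4 with the methods' t-test, and ALP against MaSC, with 18, gave 10 with only the 2 populations in the fit and 2 with the methods' t-test. These t-test counts are after Benjamini-Hochberg adjustment. At an unadjusted t-test p under 0.05 they were 10 for AL against ALP, 13 for ALP against MaSC and 2 for ALP against LP. Leaving out 1 array gave 17 to 20 genes for MaSC against LP, 26 to 27 for MaSC against ML, 23 to 25 for LP against ML, 18 to 21 for AL against MaSC, 7 to 10 for AL against LP, 23 to 25 for AL against ML, 5 to 11 for AL against ALP, 13 to 22 for ALP against MaSC, 0 to 4 for ALP against LP and 20 to 22 for ALP against ML. The cause of these changes was not tested. With arrays centred on their medians the split was 2 higher and 5 lower in AL against ALP and 2 higher and 2 lower in ALP against LP, and the median log2 difference of all genes moved from -0.02 to -0.43 in ALP against ML and from -0.02 to 0.26 in AL against ALP. With the replicate number as a block over the 9 arrays of MaSC, LP and ML, the counts were 22, 26 and 25 for MaSC against LP, MaSC against ML and LP against ML (22, 27 and 24 in those arrays without the block). Each array's deviations from its population means were correlated over all tested genes, between arrays of different populations among MaSC, LP and ML. These deviations correlated between -0.01 and 0.17 for same-numbered samples, and between -0.12 and 0.08 for different-numbered samples. These values do not settle whether a number marks a suspension. The labels do not say so either, and the numbers were therefore not taken as pairs in the main fit. With 3 arrays a group and dim probe sets in ML, folds against ML are the least certain in size.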
